A study of Bos taurus with 170 samples.

Results

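The genes described here encode RNA polymerases I, II and III, the general transcription factors that load them onto promoters, and Mediator, the coactivator that joins polymerase II to DNA-bound regulators. They were taken by symbol from the table of unique molecular identifier (UMI) counts: every symbol starting with POLR1, POLR2, POLR3, GTF2, GTF3 or MED and a digit, and every TAF symbol of digits and an optional letter. Of the 10772 genes in the table, 85 matched: 4 polymerase I, 11 polymerase II, 9 polymerase III, 36 general factor and 25 Mediator genes. All 85 symbols were also found in the RefSeq gene table of assembly ARS-UCD2.0. The UMI table has no row for several core members of these complexes, among them TBP, TAF1, TAF4, MED13, MED14 and POLR1D, and they were not analysed here.

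The study dissociated bovine embryos, produced by in vitro fertilization of oocytes from slaughterhouse ovaries, into single blastomeres and sequenced each by SCRB-Seq, a plate-based method that tags every captured mRNA molecule with a UMI. No embryo was treated, and the comparison was one of age, between Day 2 embryos labelled as 8-cell (n = 6, with 6 to 9 cells each in the table) and Day 3 embryos labelled as 16-cell (n = 8, with 13 to 17 cells), which the paper calls Day2-E1 to Day2-E6 and Day3-E1 to Day3-E8. These embryos had been chosen by the timing of their first cleavages for a high potential to develop, so they do not stand for all embryos in culture. Cells with 2000 or more UMI were summed per embryo (43 of 47 Day 2 and 118 of 123 Day 3 cells), and the embryo was the replicate. Parents and embryo sex were not taken into account, and embryos of the same day may share parents. A Day 2 embryo held 438899 to 920192 gene UMI and a Day 3 embryo 294912 to 600185. Levels are in CPM, the UMI of a gene per 1000000 gene UMI of the embryo. A UMI stands for 1 molecule captured at its 3′ end, so gene length does not enter the level. CPM is a share of the captured molecules, and more molecules of a gene and fewer of the others cannot be told apart.

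RNA polymerase I makes the large ribosomal RNA precursor, polymerase II makes mRNA, and polymerase III makes tRNA and 5S ribosomal RNA. Each is a many-subunit enzyme whose catalytic cleft is formed by its largest and second-largest subunits, and a few small subunits are shared between the enzymes. At a polymerase II promoter, TFIID (TBP and its TAFs), TFIIA and TFIIB set the start site, TFIIF and TFIIE bring in and position the enzyme, and TFIIH opens the DNA and phosphorylates the polymerase tail. In cattle, the zygote starts out with mRNA stored in the oocyte, and the major wave of embryonic transcription begins around the 8-cell to 16-cell stage, the window that these embryos span.

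Of the 85 genes, 70 had enough UMI to be tested, 24 were higher on Day 3 and 2 were lower (edgeR's quasi-likelihood test, Benjamini-Hochberg adjusted p under 0.05 over all genes). Among all 5274 genes tested, 21.18% were called higher and 11.28% lower (32.46% in either direction), against 34.3% and 2.86% of the members tested. The median log2 fold change was 0.37 over the 70 members and -0.04 over all genes tested. Subunits of the same complex differed in their change. In polymerase II, POLR2B rose 10.46-fold while 4 subunits were not called, with log2 fold changes of -0.36 to 0.37. In Mediator, MED26 rose 8.36-fold and MED4 fell by 1.19 on the log2 scale.

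**Figure D1:**
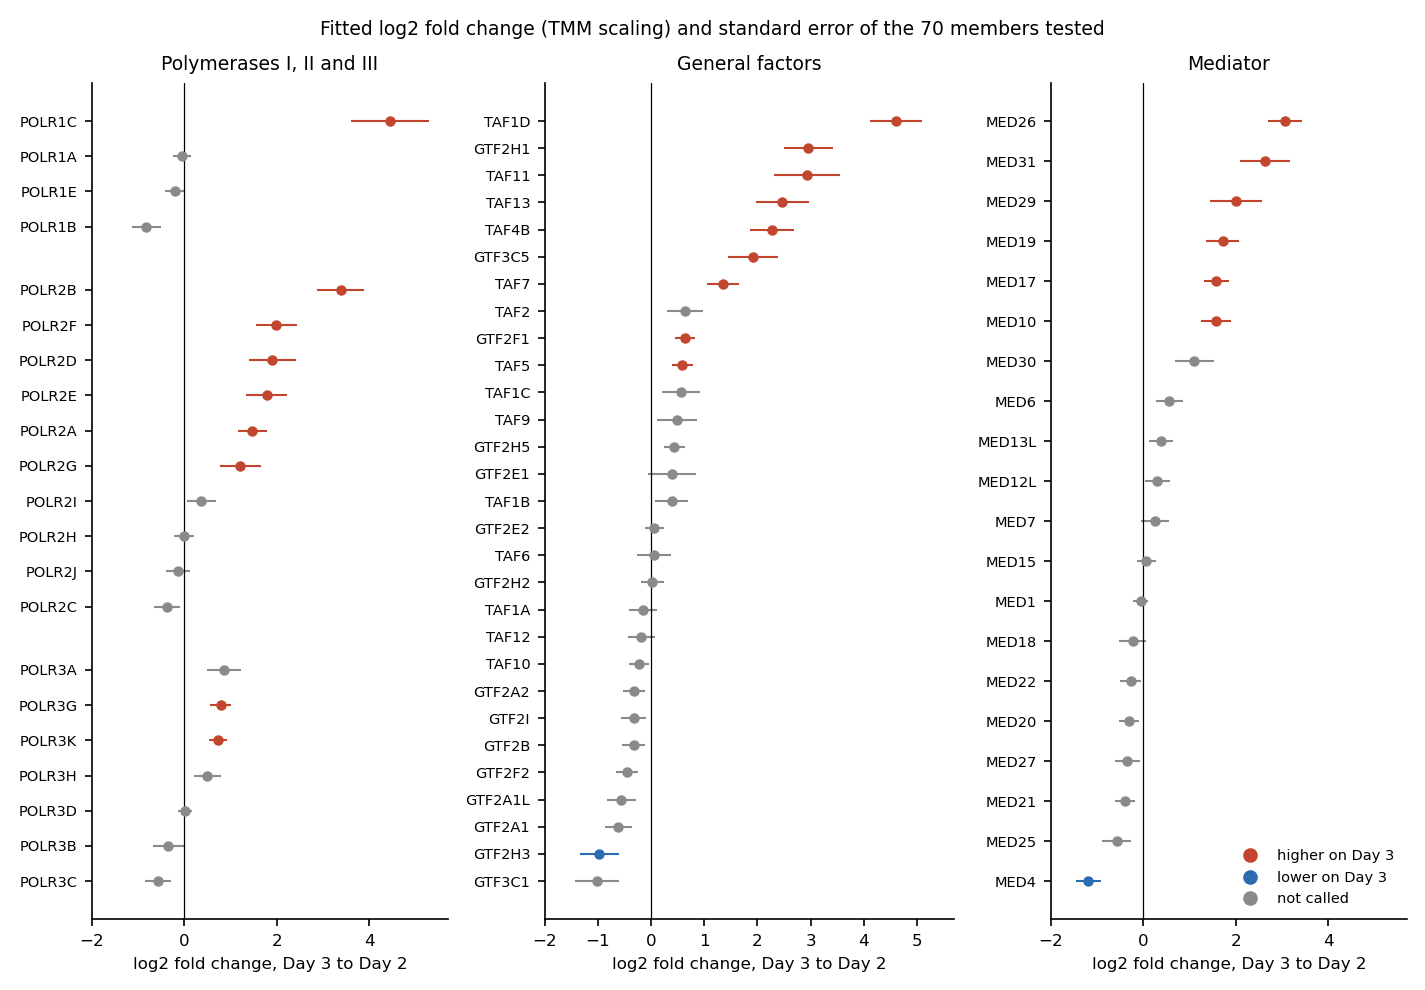
Fitted log2 fold change from Day 2 to Day 3 (horizontal axis, TMM scaling) of the 70 members tested, by class, with bars for the standard error; red marks genes higher on Day 3, blue genes lower, grey genes not called. Called genes reached 4.61 for TAF1D and 4.45 for POLR1C, while the polymerase III genes stayed at 0.86 or less.

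These fold changes depend in part on how the embryos were scaled. TMM scaling factors were 1.08 to 1.13 in Day 2 embryos and 0.698 to 1.098 in Day 3 embryos. Without TMM the median over all genes moved from -0.04 to -0.27, a shift of 0.23. The split of all calls moved from 1117 higher and 595 lower to 890 higher and 981 lower, or 16.88% and 18.60%, and that of the members from 24 and 2 to 19 and 8. The 5 members that lost their call without TMM were GTF2F1, TAF5, POLR2G, POLR3G and POLR3K, all with fitted rises of 1.21 or less on the log2 scale. The 6 that were then called lower besides MED4 and GTF2H3 were POLR1B, GTF2A1, GTF2B, GTF3C1, MED21 and MED25.

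Day and cell barcode set overlapped in part, the sets being read from the reuse of barcodes and not named in the labels. From the cell barcodes, a first set held every Day 2 embryo with Day3-E1 and Day3-E2, and a second set Day3-E4 to Day3-E8. Of the 16 barcodes of Day3-E3, 1 was shared with a cell of another embryo, and this embryo was placed in neither set. Gene UMI per spike-in UMI, as the median over the cells of an embryo, were 67.4 to 75.8 in the first set, 32.4 to 41.3 in the second and 88.9 in Day3-E3. Within the first set alone, with 2 Day 3 embryos, 7 members were called higher and 0 lower by edgeR (1 was lower at an unadjusted p under 0.05), against 5.28% and 0.388% of all genes tested there. The 7 were POLR2B, POLR1C, TAF1D, TAF11, TAF4B, GTF2H1 and MED26, and the other 17 members called higher over all embryos were not called there, nor were MED4 and GTF2H3. All 24 had a positive log2 fold change in the first set, each smaller than over all embryos, and among the 17 without a call it ran from 0.34 for TAF5 to 1.49 for MED31. With Day3-E3 added, 14 were called higher and 0 lower by edgeR (4 at an unadjusted p under 0.05), against 7.68% and 1.47% of all genes tested there. The labels also give plate numbers. Plate 2 held 2 embryos of each day, plate 3 4 Day 2 and 2 Day 3 embryos, and plate 1 Day 3 embryos only. With plate in the model, 20 members were called higher and 3 lower, against 16.95% and 13.73% of all genes, and GTF2F1, POLR2D, POLR2G and POLR3G lost their call.

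Summed over their genes, the classes had log2 ratios of Day 3 to Day 2 between -0.12 and 0.43 in CPM. Polymerase II genes together made up 1866 ± 397 CPM on Day 2 (mean ± SD over 6 embryos) and 2517 ± 412 CPM on Day 3 (over 8 embryos), with 3 Day 3 embryos above every Day 2 embryo. POLR2J, which was not called, made up 1053 and 839 CPM of these means, and the other 10 genes went from 812 ± 53.0 to 1678 ± 710 CPM, a log2 ratio of 1.05, with 7 Day 3 embryos above the Day 2 range. That split was made after the values were seen. Polymerase III genes summed to 1272 ± 57.8 CPM and 1386 ± 88.3, and general factors to 4538 ± 242 and 5036 ± 336, each with 5 of 8 Day 3 embryos above the Day 2 range. Mediator genes summed to 2428 ± 140 and 2604 ± 400 CPM. In the Mediator sum the Day 3 median, 2430, was at the Day 2 median of 2445, and the log2 ratio of the means, 0.10, was 0.03 without Day3-E4, which had the highest sum at 3500 CPM, and it was -0.0058 in the first barcode set and -0.028 with Day3-E3 added. Polymerase I was the one class with a lower mean on Day 3 (544 ± 70.1 and 499 ± 89.9 CPM), and its log2 ratio turned from -0.12 to 0.19 when CPM was computed on TMM library sizes, and it was 0.059 within plate 2. These ratios were left untested, and the days overlapped in each class. All 85 genes together were 1.06% of gene UMI on Day 2 and 1.204% on Day 3.

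**Figure D2:**
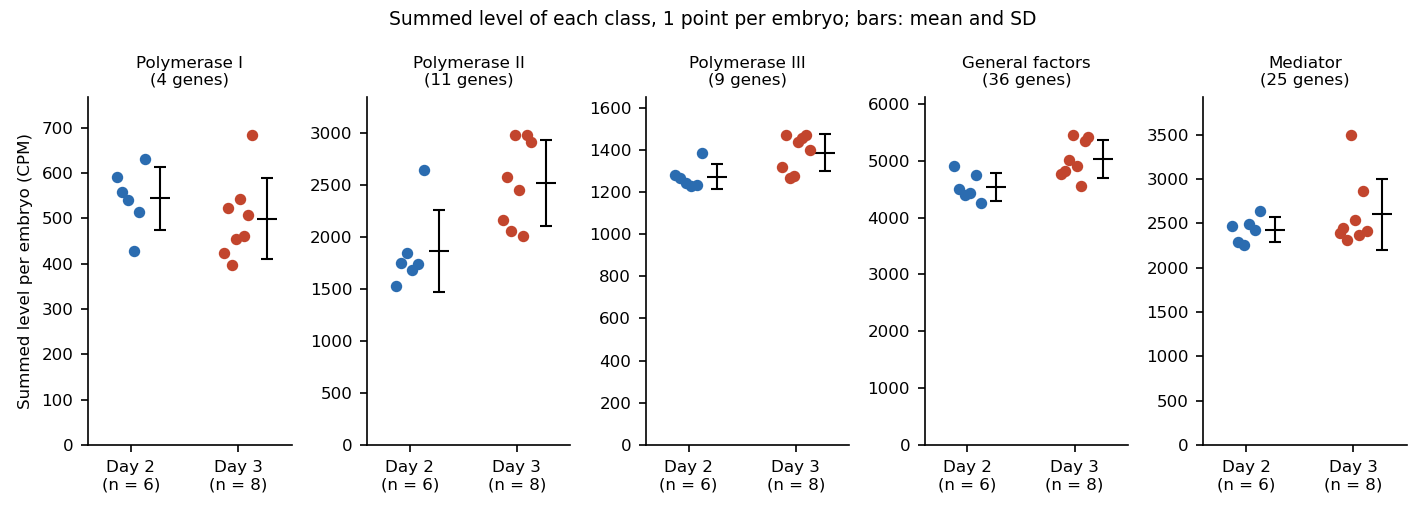
Summed level in CPM (vertical axis, from 0) of the genes of each class in each Day 2 (blue) and Day 3 (red) embryo, with the mean and SD beside the points. The days overlapped in all 5 classes, and Day2-E6 stood above the other Day 2 embryos for polymerase II at 2648 CPM.

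POLR2B, the second-largest subunit of polymerase II, rose most of the subunits of that enzyme. Its level was 32.1, 42.2 and 48.7 CPM (lowest, median and highest) in Day 2 embryos and 51.7, 323 and 559 CPM in Day 3 embryos. No Day 3 embryo overlapped the Day 2 range, a pattern seen for 3.98% of all genes tested, but the lowest of them, Day3-E1, exceeded the highest Day 2 embryo by little. The log2 fold change was 3.39 with a standard error (SE) of 0.51 and an adjusted p of 0.000204 in edgeR, and it was 2.48 within the first barcode set (adjusted p = 0.0163 in edgeR). Within plates 2 and 3 the log2 ratios of mean CPM were 3.6 and 2.45.

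POLR2A, the largest subunit, which carries the tail that TFIIH and CDK9 phosphorylate, rose less. It ranged from 94.0 to 145 CPM with a median of 120 on Day 2, and from 135 to 394 with a median of 301 on Day 3. Day3-E1 lay within the Day 2 range and the other 7 above it. The log2 fold change was 1.47 (SE 0.31, adjusted p = 0.0020 in edgeR). It was 1.19 in the first barcode set, where the adjusted p of edgeR was 0.0551, and the ratios within plates 2 and 3 were 1.47 and 0.95. On Day 2, then, the captured level of POLR2A was 122 ± 17.3 CPM and that of POLR2B 41.3 ± 5.99, and on Day 3 they were 268 ± 94.2 and 335 ± 193.

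Of the other tested polymerase II subunits, 4 rose and 4 were not called. The class thus had 6 of 10 tested genes higher, beside 21.18% of all genes, and 1 of 11 in the first barcode set, beside 5.28%. POLR2F and POLR2E, which are among the small subunits that all 3 polymerases share, had log2 fold changes of 1.99 (SE 0.44) and 1.78 (SE 0.45), with adjusted p of 0.00313 and 0.00685 in edgeR. POLR2D and POLR2G, the pair that forms the stalk beside the RNA exit, had log2 fold changes of 1.90 (SE 0.51) and 1.21 (SE 0.45), with adjusted p of 0.0099 and 0.0464. POLR2D was not called with plate in the model (log2 fold change 1.44, adjusted p = 0.0632 in edgeR), and none of these 4 was called in the first barcode set (1.44 for POLR2F, 0.70 for POLR2E, 1.45 for POLR2D and 0.50 for POLR2G). The POLR2G call was lost when any 1 of 10 embryos was left out (adjusted p up to 0.116 by edgeR) and within plate 3 the log2 ratio of its means was -0.01. The 4 uncalled subunits were POLR2C, POLR2H, POLR2I and POLR2J, of which POLR2C and POLR2J form the pair on which the enzyme is assembled. POLR2H, which all 3 polymerases also share, went from 129 ± 17.5 to 109 ± 42.7 CPM. POLR2J had the highest mean level of the class, with 769, 934 and 1738 CPM (lowest, median and highest) on Day 2 and 265, 793 and 1420 on Day 3. Its log2 fold change was -0.14 (SE 0.26, adjusted p = 0.714 in edgeR), and it turned positive within the first barcode set. In Day3-E4 and Day3-E8, POLR2J was at 463 and 265 CPM, below POLR2B at 559 and 543. POLR2J was above POLR2B in each of the other Day 3 embryos, such as Day3-E1 (1420 against 51.7 CPM) and Day3-E7 (908 against 520). In every Day 2 embryo POLR2J was at 769 CPM or more and POLR2B at 48.7 or less.

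**Figure D3:**
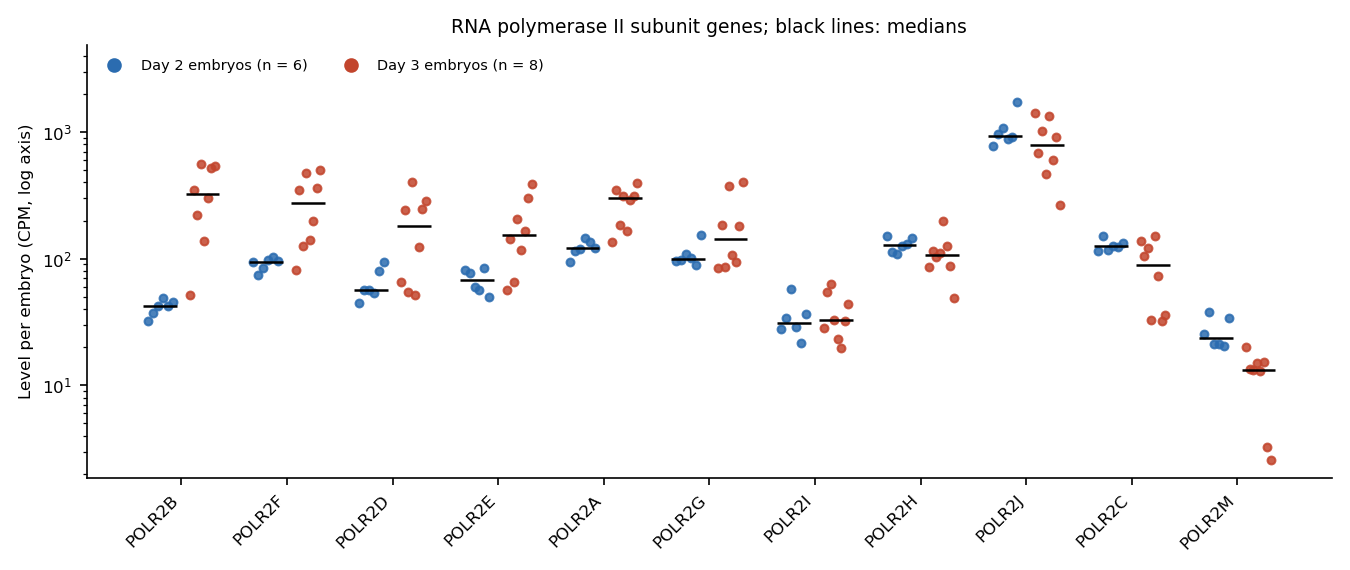
Level in CPM (vertical axis, log scale) of each of the 11 polymerase II genes in the Day 2 (blue) and Day 3 (red) embryos, ordered by fitted fold change, with medians as black lines; POLR2M, at the right, was below the filter. POLR2B is the one gene of the 11 with all Day 3 embryos above all Day 2 embryos, and POLR2J spread from 265 to 1420 CPM on Day 3.

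Beside 21.18% of all genes tested, 1 of 4 polymerase I genes rose. This was POLR1C, a subunit shared with polymerase III, with 4.35, 7.118 and 21.4 CPM (lowest, median and highest) on Day 2 and 5.00, 118 and 384 on Day 3. The log2 fold change was 4.45 (SE 0.85, adjusted p = 0.00109 in edgeR), and 7 of 8 Day 3 embryos were above the Day 2 range, the exception again being Day3-E1. The Day 2 level rests on 33 UMI over the 6 embryos. The catalytic subunits differed from it. POLR1A, the largest subunit, was at 101 ± 13.499 CPM on Day 2 and 81.1 ± 17.2 on Day 3, with a log2 fold change of -0.05 (SE 0.20, adjusted p = 0.884 in edgeR). POLR1B, the second-largest, was at 163 ± 29.5 and 80.6 ± 48.8 CPM, with a log2 fold change of -0.82 (SE 0.31) just outside the threshold (adjusted p = 0.0503 in edgeR). Here 5 Day 3 embryos were below every Day 2 embryo and 3 were within their range, and without TMM the gene was called lower (adjusted p = 0.0362 by edgeR). POLR1E had the highest mean of the class at 271 ± 55.1 and 195 ± 50.6 CPM and was not called (adjusted p = 0.465 in edgeR).

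Polymerase III showed small changes in the genes that passed the filter. POLR3K, the small subunit that trims the RNA end during termination, was at 324 ± 46.2 CPM on Day 2 and 444 ± 104 on Day 3, and POLR3G at 162 ± 15.05 and 226 ± 55.1. Their log2 fold changes were 0.73 (SE 0.19, adjusted p = 0.00843 in edgeR) and 0.78 (SE 0.23, adjusted p = 0.0150 in edgeR), and neither was called without TMM or in the first barcode set. Their log2 fold changes in that set were 0.44 and 0.67, and POLR3G was called once Day3-E3 was added. The largest subunit, POLR3A, ranged from 83.4 to 116 CPM on Day 2 and from 59.8 to 255 on Day 3, with 5 Day 3 embryos above and 2 below the Day 2 range, and was not called (log2 fold change 0.86, SE 0.36, adjusted p = 0.0747 in edgeR). POLR3B, the second-largest, was at 43.7 ± 14.0 and 27.8 ± 9.91 CPM (adjusted p = 0.447 in edgeR). POLR3G and POLR3GL are alternative subunits at 1 position of the enzyme, and the embryos held almost only the former. POLR3G gave 94.4% to 98.7% of the UMI of the pair in Day 2 embryos and 96.4% to 100% in Day 3 embryos. POLR3GL had 21 UMI over all Day 2 and 9 over all Day 3 embryos and was not tested.

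Among the general factors, 9 of the 29 tested rose and 1 fell, or 31.03% and 3.45%, beside 21.18% and 11.28% of all genes. Of 31 tested in the first barcode set, 4 were called higher and 0 lower by edgeR, beside 5.28% and 0.388% of all genes there. The largest fitted rise of the members tested was that of TAF1D, a subunit of SL1, the TBP complex that brings polymerase I to the ribosomal RNA promoter. Its Day 2 level rests on 48 UMI over the 6 embryos, which limits the size of the fold change. TAF1D was at 6.84, 12.3 and 14.08 CPM (lowest, median and highest) on Day 2 and at 71.6, 231 and 415 on Day 3, so that even the lowest Day 3 embryo, Day3-E1, was well above the Day 2 range. The log2 fold change was 4.61 (SE 0.48, adjusted p = 1.39e-05 in edgeR), 3.8 within the first barcode set (adjusted p = 0.000863 by edgeR), and the ratios within plates 2 and 3 were 4.90 and 3.88. The other SL1 genes, TAF1A, TAF1B and TAF1C, were not called. Read against the polymerase I subunits of the symbol rule, TAF1D and POLR1C rose while POLR1A, POLR1B and POLR1E did not pass the test. Of 4 polymerase I genes outside the rule, TWISTNB, RRN3 and TTF1 were called higher and CD3EAP was not, beside 21.18% of all genes. TWISTNB and CD3EAP are synonyms of the subunits POLR1F and POLR1G. With plate in the model and in the first barcode set, 0 of the 4 were called, beside 16.95% and 5.28% of all genes higher. The RRN3 call was lost when any 1 of 9 embryos was left out.

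Of the 12 TFIID and SAGA TAFs in the table, 10 were tested, 5 rose and the other 5 were not called. This stands beside 21.18% of all genes higher, and 2 of 10 were higher in the first barcode set, beside 5.28%. TAF11 and TAF13, which bind each other through their histone folds, had log2 fold changes of 2.93 (SE 0.62, adjusted p = 0.00213 in edgeR) and 2.47 (SE 0.50, adjusted p = 0.00159 in edgeR). For TAF13 all 8 Day 3 embryos (31.4 to 201 CPM) were above all Day 2 embryos (17.2 to 28.3), and for TAF11 7 were. In the first barcode set TAF13 was at 1.01 and not called (adjusted p = 0.126 in edgeR), and TAF11 was at 1.98 (adjusted p = 0.0494 in edgeR). TAF4B, the paralog of TAF4 known from ovary and testis, went from 22.1 ± 9.47 to 87.7 ± 42.8 CPM, or 2.28 on the log2 scale (SE 0.41, adjusted p = 0.000752 in edgeR). TAF7, which binds TAF1, went from 118 ± 11.74 to 238 ± 85.4 CPM (log2 fold change 1.35, SE 0.30, adjusted p = 0.00321 in edgeR), but 0.54 and not called in the first barcode set (adjusted p = 0.254 in edgeR). TAF5, a scaffold of TFIID, rose least of the 5, from 487 ± 37.9 to 594 ± 98.8 CPM, and its call was lost without TMM and when any 1 of 10 embryos was left out. TAF6 and TAF9 were not called, with log2 fold changes of 0.05 and 0.49 (adjusted p of 0.91 and 0.336 in edgeR). TAF6 gave 77.8% ± 6.93 of the UMI of TAF6 and its paralog TAF6L on Day 2 and 68.1% ± 16.403 on Day 3. TBPL1, the TBP-like factor, whose symbol lies outside the rule, was at 735 ± 61.7 CPM on Day 2 and 706 ± 266 on Day 3 and was not called (adjusted p = 0.533 in edgeR).

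TFIIH was divided. GTF2H1, a core subunit that docks TFIIH on TFIIE, was at 32.0, 44.3 and 70.4 CPM (lowest, median and highest) on Day 2 and at 91.6, 287 and 510 on Day 3, with no overlap. Its log2 fold change was 2.96 (SE 0.47, adjusted p = 0.000283 in edgeR), 2.32 within the first barcode set (adjusted p = 0.0105 by edgeR), and the ratios within plates 2 and 3 were 2.96 and 2.03. GTF2H3, another core subunit, was the one general factor called lower, from 41.4 ± 16.86 to 16.84 ± 12.03 CPM (log2 fold change -0.97, SE 0.36, adjusted p = 0.0480 in edgeR). That call did not hold when any 1 of 12 embryos was left out (adjusted p up to 0.108 by edgeR), and in the first barcode set the log2 fold change was -0.19. It was -1.76 with plate in the model (adjusted p = 0.0109 in edgeR), and the ratios within plates 2 and 3 were -2.16 and -2.05. GTF2H2 and GTF2H5 were not called. The 4 tested TFIIH genes outside the symbol rule lay on the other side of 0 from GTF2H1. Of these, 2 were called lower, and ERCC2 was below the filter. ERCC3, the translocase that opens the promoter, had a log2 fold change of -0.68 (adjusted p = 0.0204 in edgeR) and CDK7, the kinase of the polymerase tail, one of -0.61 (adjusted p = 0.0352 in edgeR), the latter lost when any 1 of 9 embryos was left out (adjusted p up to 0.0707). In the first barcode set ERCC3 and CDK7 were at -0.32 and -0.37 and not called. MNAT1, which joins CDK7 to the core, was lower in all 8 Day 3 embryos than in any Day 2 embryo in CPM, yet was not called after TMM (log2 fold change -0.57, adjusted p = 0.0549 in edgeR).

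**Figure D4:**
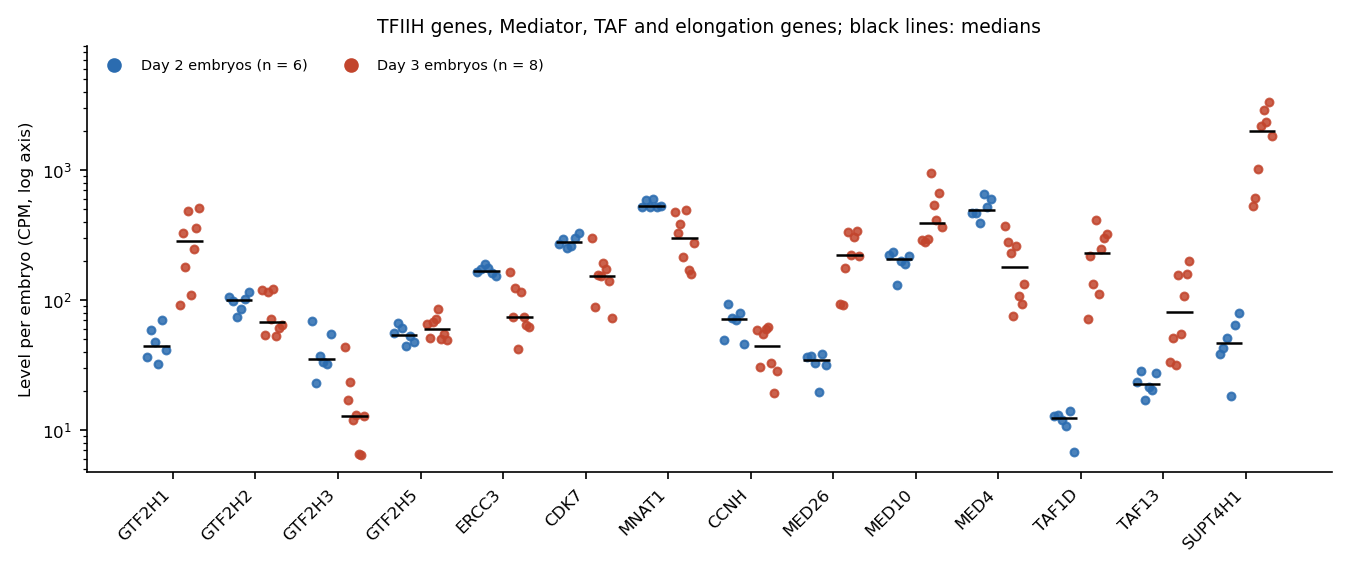
Level in CPM (vertical axis, log scale) of TFIIH genes, MED26, MED10 and MED4 of Mediator, TAF1D, TAF13 and the elongation gene SUPT4H1 in Day 2 (blue) and Day 3 (red) embryos, with medians as black lines. GTF2H1, MED26, MED10, TAF1D, TAF13 and SUPT4H1 had all Day 3 embryos above all Day 2 embryos, and MED4 and MNAT1 had all of them below.

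Genes of TFIIA, TFIIB and TFIIE were not called. TFIIA genes (GTF2A1, GTF2A1L and GTF2A2) and TFIIB (GTF2B) were uncalled with negative log2 fold changes, from -0.62 to -0.32, and TFIIE genes with 0.06 and 0.40. GTF2A1 was at 310 ± 55.3 CPM on Day 2 and 176 ± 92.3 on Day 3 (adjusted p = 0.0704 in edgeR), and its germ-cell paralog GTF2A1L at 88.9 ± 14.61 and 52.2 ± 28.6 (adjusted p = 0.129 in edgeR). GTF2A1 gave 77.6% ± 1.81 of the UMI of this pair on Day 2 (SD over 6 embryos) and 76.7% ± 8.14 on Day 3 (SD over 8 embryos). Within TFIIF, GTF2F1, the general factor with the highest mean level, was at 628 ± 123 and 812 ± 214 CPM (log2 fold change 0.63, SE 0.19, adjusted p = 0.0184 in edgeR), while its partner GTF2F2 was not called and lay below 0. The GTF2F1 call was lost when Day2-E4, Day2-E5 or Day2-E6 was left out (adjusted p up to 0.0699 by edgeR), and within plate 3 the log2 ratio of its means was -0.03. GTF3C5, a subunit of the polymerase III factor TFIIIC, rose from 23.8 ± 6.92 to 70.3 ± 41.1 CPM (log2 fold change 1.91, SE 0.47, adjusted p = 0.00569 in edgeR), and GTF3C1 was not called. In the first barcode set GTF3C5 was at 0.77 and not called (adjusted p = 0.477 in edgeR).

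In Mediator, 6 of the 20 tested genes rose and 1 fell, or 30% and 5%, beside 21.18% and 11.28% of all genes. Of 22 Mediator genes tested in the first barcode set, 1 was called higher and 0 lower by edgeR, beside 5.28% and 0.388% of all genes there. The head, middle and tail form the body of the complex, and the kinase module binds to it reversibly. MED26, the subunit that links Mediator to TFIID and to elongation factors, was at 19.8, 34.7 and 38.4 CPM (lowest, median and highest) on Day 2 and at 91.6, 220 and 336 on Day 3, with no overlap. Its log2 fold change was 3.06 (SE 0.37, adjusted p = 4.27e-05 in edgeR) and the ratios within plates 2 and 3 were 2.97 and 3.07. Within the first barcode set it was 1.66 (adjusted p = 0.00769 by edgeR). In this gene Day3-E1 and Day3-E2 were nearly level at 93.3 and 91.6 CPM, and the 6 other Day 3 embryos held 175 to 336.

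Also without overlap were MED17, the scaffold of the head, and MED10 of the middle. MED10 had the highest mean level of the class over the 14 embryos, although MED4, MED1 and MED21 were above it on Day 2 (513, 327 and 236 CPM). MED17 was at 35.5 ± 7.09 CPM on Day 2 and 86.7 ± 26.2 on Day 3 (log2 fold change 1.58, SE 0.28, adjusted p = 0.000582 in edgeR). MED10 was at 198 ± 37.3 and 473 ± 235 CPM (log2 fold change 1.57, SE 0.32, adjusted p = 0.00181 in edgeR). Neither was called in the first barcode set, where MED17 was at 0.87 (adjusted p = 0.116 in edgeR) and MED10 at 0.70 (adjusted p = 0.0909 in edgeR). MED31 and MED19 of the middle and MED29 of the tail rose with overlapping embryos, with log2 fold changes of 2.63, 1.71 and 2.00 and adjusted p of 0.00186, 0.00204 and 0.0124 in edgeR. They were at 1.49, 1.16 and 0.70 in the first barcode set and not called there. MED29 rests on 47 UMI on Day 2 and fell under the filter when any 1 of 5 Day 3 embryos was left out.

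MED4, a middle subunit like MED10 and MED31, went the other way. It was at 389, 492 and 648 CPM (lowest, median and highest) on Day 2 and at 74.7, 181 and 370 on Day 3, so that all 8 Day 3 embryos were below all Day 2 embryos, as for 5.38% of all genes tested. The log2 fold change was -1.19 (SE 0.28, adjusted p = 0.00401 in edgeR), with ratios of -2.28 and -1.43 within plates 2 and 3. It was -0.49 in the first barcode set and not called there (adjusted p = 0.221 by edgeR). MED4 was the most abundant of MED4, MED10 and MED31 in each Day 2 embryo. MED4 was also the most abundant of these genes in Day3-E1 (370 CPM, against 290 of MED10) and Day3-E2 (281.4 against 278.0). MED10 was above MED4 in each of the other Day 3 embryos. The levels in Day3-E4, which had the lowest MED4 and the highest MED10, were 74.7 CPM of MED4, 947 of MED10 and 305 of MED31. In the kinase module, MED12L and MED13L were not called (log2 fold changes 0.30 and 0.38, adjusted p of 0.417 and 0.279 in edgeR), and MED12 was below the filter. Of this paralog pair, MED12 gave 14.95% ± 7.78 of the UMI of MED12 and MED12L on Day 2 (SD over 6 embryos) and 34.3% ± 13.37 on Day 3 (SD over 8 embryos).

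The 15 members under the filter on low counts had a mean of at most 44.9 CPM on either day and were left out of the test. In 3 of them the days did not overlap in CPM. Of the genes that passed the filter, 3.98% had all Day 3 embryos above and 5.38% all below. The share among all genes under the filter was not computed, so nothing is read from the number 3. TAF8, a TFIID subunit that binds TAF10, had 8 UMI over the Day 2 and 112 over the Day 3 embryos, or 0 to 4.35 and 13.33 to 78.0 CPM. MED23, of the Mediator tail, had 83 and 17 UMI and was at 16.64 to 29.6 CPM on Day 2 and 0 to 15.7 on Day 3, with 4 Day 3 embryos at 0. POLR2M had 108 and 40 UMI and was at 20.5 to 38.0 and 2.57 to 20.0 CPM. POLR3F, a subunit of polymerase III, had 15 and 127 UMI, and its Day 3 embryos ranged from 3.33 to 121 CPM. A fit of all 10772 genes without the filter called TAF8, POLR3F, MED12, MED9 and MED11 higher and MED23 lower (log2 fold changes 4.31, 3.74, 2.127, 3.87, 1.64 and -1.84, with adjusted p in edgeR of 2.46e-05, 0.00047, 0.00376, 0.0104, 0.0310 and 0.0230), beside 14.23% and 6.1% of all genes. These genes had few UMI on the day on which they were low, so nothing is read from their number.

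Genes of the same machinery outside the symbol rule were listed separately, 65 of them with a row and 55 tested. Here 27 were higher on Day 3 and 7 lower, 49.1% and 12.7% of those tested beside 21.18% and 11.28% of all genes, with a median log2 fold change of 0.64, and without TMM the counts were 23 and 12, beside 16.88% and 18.60% of all genes. With plate in the model they were 19 and 7, beside 16.95% and 13.73% of all genes. In the first barcode set 13 of 56 were higher and 0 lower by edgeR (0 lower at an unadjusted p under 0.05), beside 5.28% and 0.388% of all genes tested there. With Day3-E3 added they were 12 of 54 and 0 (2 lower at an unadjusted p under 0.05), beside 7.68% and 1.47%. The largest rise was that of SUPT4H1, the small subunit of the elongation factor DSIF. It went from 49.1 ± 21.3 CPM (range 18.3 to 79.7) to 1835 ± 1038 (range 528 to 3310), or 5.53 on the log2 scale (SE 0.52, adjusted p = 6.74e-06 in edgeR), with 8 of 8 Day 3 embryos above the Day 2 range. TFAM, a mitochondrial transcription factor, TCEB2 and TCEB3 (elongin B and A) also showed no overlap. Their log2 fold changes were 4.10, 3.8 and 2.08 (adjusted p of 0.000178, 0.000281 and 9.99e-05 in edgeR). TCEB2 had only 51 UMI over the Day 2 embryos, which limits its fold change. SUPT4H1, TFAM, TCEB2 and TCEB3 were called higher in the first barcode set too, with smaller log2 fold changes of 3.73, 3.37, 2.81 and 1.80. LARP7, which holds the 7SK RNA that keeps P-TEFb inactive, and WDR61, of the PAF1 complex, were lower without overlap, by 0.82 and 0.68 on the log2 scale (adjusted p of 0.0200 and 0.0464 in edgeR). The WDR61 call was lost when any 1 of 8 embryos was left out (adjusted p up to 0.0769 by edgeR), and in the first barcode set LARP7 and WDR61 were at -0.47 and -0.19 and not called.

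BRF2 and SNAPC1, SNAPC2, SNAPC3 and SNAPC5, which serve promoters of small nuclear RNAs such as U6, were called higher. They made 5 of 7 polymerase III genes of this list higher, beside 21.18% of all genes, with a median log2 fold change of 2.95 over the 7. BRF2, SNAPC1, SNAPC3 and SNAPC5 had only 39, 31, 65 and 37 UMI over the Day 2 embryos, which limits their fold changes. In the first barcode set 2 of the 5 tested, SNAPC2 and SNAPC5, were called, beside 5.28% of all genes higher there. SNAPC3 was not (adjusted p = 0.134 in edgeR), and BRF2 and SNAPC1 were below the filter. SNAPC1 went from 8.63 ± 4.87 to 117 ± 79.5 CPM and SNAPC2 from 208 ± 28.1 to 660 ± 297. Of 25 tested genes of pausing and elongation, 13 were higher and 4 lower, beside 21.18% and 11.28% of all genes. The number higher was 9 with plate in the model, beside 16.95% of all genes, and 6 of 27 in the first barcode set, beside 5.28%. The 4 lower were LARP7, WDR61, LEO1 and SUPT16H. LEO1 went from 2975 ± 438 to 1275 ± 850 CPM (log2 fold change -1.05, adjusted p = 0.0190 in edgeR) and SUPT16H from 295 ± 53.1 to 148 ± 67.2. Leaving out 1 embryo lost neither call, and in the first barcode set the genes were at -0.31 and -0.44 and not called. CDK9, the kinase of P-TEFb, went from 151 ± 29.8 to 373 ± 99.6 CPM with all Day 3 embryos above (log2 fold change 1.63, SE 0.26, adjusted p = 0.000325 in edgeR). HEXIM1, which inhibits P-TEFb, went from 8.08 ± 4.27 to 112 ± 82.8 CPM (log2 fold change 4.20, SE 0.67, adjusted p = 0.000311 in edgeR). It had only 29 UMI over the Day 2 embryos and was below the filter in the first barcode set. Its paralog HEXIM2, with 676 UMI over the Day 2 embryos, was not called. HEXIM2 went from 165 ± 21.2 to 122 ± 47.0 CPM, with 5 Day 3 embryos below the Day 2 range and 0 above it. In the Mediator kinase, cyclin C (CCNC) had a log2 fold change of 3.83 (adjusted p = 0.000319 in edgeR) and the kinase CDK19 one of -0.01 (adjusted p = 0.981 in edgeR). CCNC had only 49 UMI over the Day 2 embryos, which limits its fold change, and Day3-E1 lay within the Day 2 range. CDK8 was not analysed here. Apart from SUPT4H1, TFAM, TCEB2, TCEB3, LARP7, WDR61, CDK19 and TBPL1, the genes of this list were named after their values were seen, as were POLR1C, the uncalled members named in groups and the called members whose embryos overlapped.

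The Day 3 embryos were not alike. Summed over the 24 members called higher, which is a description since the same values chose them, Day 2 embryos held 2534 to 2900 CPM. Day3-E1 held 3379 CPM, Day3-E5 4315, Day3-E3 4608, Day3-E6 5321, Day3-E2 5649, Day3-E7 7623, Day3-E8 8004 and Day3-E4 8694. Day3-E4, Day3-E7 and Day3-E8 belong to the second barcode set, as do Day3-E5 and Day3-E6. In the order of the sums, from Day3-E1 to Day3-E4, the TMM factors were 1.098, 1.074, 1.026, 0.982, 0.909, 0.903, 0.698 and 0.786. The 11 oocyte and cleavage-stage markers summed, in the same order, to 11888, 12588, 11071, 10312, 6568, 10998, 3246 and 6536 CPM, so that they were low in Day3-E2, Day3-E4 and Day3-E8 and not in Day3-E7. The part of the scaling, the barcode set and these markers in the order was not tested. The 44 uncalled members, likewise chosen by these values, ran against this order at its ends, with 7116 CPM in Day3-E1, 4674 in Day3-E4 and 4224 in Day3-E8, and 6926 to 7822 on Day 2. Day3-E1 was the lowest Day 3 embryo for 15 of the 24 genes and lay above the Day 2 maximum for 11. It lay within the Day 2 range for 9, which included POLR2A, POLR2D, POLR2E, POLR2F and TAF11, and below that range for POLR2G, GTF3C5, MED29 and TAF5. Day3-E4 and Day3-E8 were the highest Day 3 embryo for 9 and 10 of the 24. Leaving out Day3-E1 raised the members called to 27 higher and 5 lower, beside 23.96% and 17.70% of all genes tested.

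Single cells of the 2 days differ in depth, with medians of 76074 UMI on Day 2 and 24696 on Day 3, so each cell was thinned to 10000 gene UMI, which kept 37 Day 2 and 103 Day 3 cells and left out 6 and 15. A thinned cell then held UMI of 41.6 ± 1.73 of the 85 genes on Day 2 (mean ± SD of 6 embryo means) and of 44.5 ± 2.74 on Day 3 (8 embryo means). POLR2B had a UMI in 37.8% of thinned Day 2 cells and 84.5% of thinned Day 3 cells, TAF1D in 13.51% and 78.6%, and MED26 in 29.7% and 77.7%. Before thinning these shares were 81.4% and 94.1%, 58.1% and 91.5%, and 74.4% and 93.2%. MED4 had a UMI in 100% of thinned Day 2 and 73.8% of thinned Day 3 cells, and in 97.7% and 83.1% before thinning. Cells of 1 embryo are not independent, and these shares carry no test.

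The labelled cell type was checked with its markers. The 11 oocyte and cleavage-stage genes with a row summed to 10572 ± 686 CPM on Day 2 and 9151 ± 3298 on Day 3, with 4 lower (ZP2, GDF9, ZAR1 and OOEP) and 0 higher by edgeR, 1 higher at an unadjusted p under 0.05 and 1 by DESeq2, where 11.28% of all genes were lower and 21.18% higher. In the first barcode set ZAR1 alone of the 11 was called lower (adjusted p = 0.0264 in edgeR), and with plate in the model GDF9, ZAR1 and NLRP5 were. DPPA3 was the most abundant in mean CPM on both days. Their part in the results above was not tested. Markers of cumulus and granulosa cells, which surround the oocyte, had 9 of 12 genes with a row, summed to 558 ± 49.1 and 389 ± 138 CPM, and gave 0 calls by edgeR among 3 tested, with 1 lower at an unadjusted p under 0.05 and 1 lower by DESeq2. STAR (260 CPM on Day 2 and 143 on Day 3) and HAS2 (254 and 190 CPM) made up most of that sum. Of the others, VCAN had 93 UMI over all Day 2 and 38 over all Day 3 embryos, INHBA 54 and 79, GREM1 24 and 10, and TNFAIP6 1 and 35. PTX3 had 7 and 2 UMI, CYP11A1 2 and 1, and HSD3B1 1 and 5. The part of such cells in the results was not tested.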

How the data were processed

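The authors aligned the SCRB-Seq reads with STAR 2.5.2b, per the labels and the paper to the Bos tau7 genome with ERCC spike-in sequences, and counted UMI with the Drop-seq pipeline. The gene annotation and the strand setting of the counting are not given in the sources used here, so genes with near-identical copies or antisense partners are uncertain. The deposited UMI counts are whole numbers of 10772 genes and 92 spike-ins in 170 cells, which were not normalised. The authors' normalised table was not used. As in the study, cells under 2000 UMI (9 cells) were left out, and gene totals hold no spike-in UMI. UMI were summed per embryo, since cells of 1 embryo are not replicates. p-values measure the spread between embryos.

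The main test was edgeR 4.0.16 (filterByExpr, TMM, quasi-likelihood) in R 4.3.3 on all 14 embryos, with Benjamini-Hochberg adjustment over 5274 genes and a threshold of 0.05. The study states no test between days. The SE of a log2 fold change was its size divided by the square root of the F statistic. The test was checked on simulated counts with known fold changes. DESeq2 1.42.0, other scalings and filters, other cell thresholds, plate, barcode set and each embryo left out were the alternatives.

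The members and lists were chosen with earlier results of these data known. Named were the largest subunits, per class up to 4 called genes in each direction with the largest change and no overlap of embryos, the gene with the highest mean level, and paralog pairs, and likewise up to 4 genes in each direction of the outside list. No coordinates or sequences are given, since the reference assembly used for names (ARS-UCD2.0) differs from the build of the counts.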

Additional observations from a re-analysis of the deposited data

Results flagged for a closer look

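Among 136 sets of embryos of the same day, 18 had a highest or lowest embryo standing apart from the rest by Dixon's 95% criterion. Chance gives about 1 in 20. No comparison between groups and no data outside the main measurement were singled out.

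Several of these were in Day2-E6, in which polymerase II genes summed to 2648 CPM (next Day 2 embryo 1846), with POLR2J at 1738 CPM (next 1071), and polymerase III genes to 1383 CPM (next 1280). The same embryo was highest on Day 2 for POLR2G at 155 CPM (next 108) and MED31 at 45.6 CPM (next 28.2).

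Day3-E4 was apart from the other Day 3 embryos for the Mediator sum at 3500 CPM (next 2861), MED29 at 98.6 CPM (next 46.3), TAF9 at 164 CPM (next 69.98) and, as the lowest, POLR1A at 44.8 CPM (next 76.6).

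Day2-E4 was lowest for MED26 at 19.8 CPM (next 31.9) and for TCEB2 at 7.61 CPM (next 13.04), and highest for LARP7 at 314 CPM (next 242).

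The remaining cases were single. POLR1C was at 21.4 CPM in Day2-E1 (next 9.13), POLR3GL at 10.87 in Day2-E2 (next 5.28) and MED29 at 23.7 in Day2-E3 (next 10.87). On Day 3, GTF2H3 was at 43.3 CPM in Day3-E1 (next 23.6), MED12L at 105 in Day3-E2 (next 53.3) and TCEB3 at 346 in Day3-E5 (next 180).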

How the results depend on the processing

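Over all genes, 729 were called with cells thinned to 10000 UMI, 351 in the first barcode set, 542 with Day3-E3 added to that set (an alternative chosen after seeing the data) and 806 with the embryo number as a replicate block. Same-numbered embryos did not deviate together (correlations of their deviations -0.13 to 0.026), so the numbers do not pair them. Members called higher were 14, 7, 14 and 15 in that order, and members called lower 1, 0, 0 and 1. The members tested were 43 in thinned cells, 75 in the first barcode set and 74 with Day3-E3, beside 70 in the main fit. Over all genes, 5.28% and 7.68% were higher and 0.388% and 1.47% lower in the barcode-set fits. Members called lower were also 1 with DESeq2 size factors, 6 by the DESeq2 test and 8 without TMM, the last beside 18.60% of all genes. Shares of all genes by direction were not taken for the thinned, block and DESeq2 settings, so nothing is read from those counts. Fewer embryos or UMI enter the thinned and barcode-set fits, and the other causes were not tested. Leaving out 1 embryo gave 1327 to 2163 genes called, 21 to 27 members higher and 1 to 5 lower, the 5 without Day3-E1 and the 1 without Day2-E1, Day2-E4, Day2-E5, Day2-E6, Day3-E6 or Day3-E7. All 14 leave-outs kept 21 of the 26 members called.

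Class sums on TMM library sizes had log2 ratios of 0.19 for polymerase I (from -0.12), 0.74 for polymerase II, 0.41 for polymerase III, 0.45 for general factors and 0.40 for Mediator. For polymerase III it was 0.041 in thinned cells and 0.019 as a mean over cells, and for general factors 0.26 within plate 2 and 0.055 within plate 3.

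The alternatives were followed for 60 of the tested genes. Among these, the fitted log2 fold changes that changed sign were those of 6 uncalled genes, not called on either side. They were POLR1A, POLR2J, TAF6, TAF9, TBPL1 and CDK19. POLR1A was at 0.11 with plate in the model, and TAF9 at -0.18. TBPL1 was at -0.053 and TAF6 at -0.18 without TMM. TAF6 was also at -0.025 without the filter, -0.41 in the first barcode set, -0.62 with Day3-E3 and -0.015 with the replicate block. POLR2J was at 0.14 in the first barcode set and 0.13 with Day3-E3, and CDK19 at 0.23 and 0.31. CDK19 was at 0.0094 with DESeq2 size factors and 0.028 in the DESeq2 test. Over the leave-outs POLR1A ranged from -0.16 to 0.028, POLR2J from -0.26 to 0.028, TAF6 from -0.079 to 0.19 and CDK19 from -0.15 to 0.070. The level of a member with few UMI, such as POLR1C on Day 2, is limited by depth.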
